A study of Mus musculus with 2 samples.

Results

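Granular-layer keratinocytes are the last living cells of the epidermis beneath the cornified surface, and they were followed here in mouse back skin by imaging of single RNA molecules. They were taken as every cell outline holding at least 20 gene transcripts in which the loricrin gene Lor and the aspartic protease gene Asprv1 together made up at least 8% of the transcripts. By that rule 1051 of 15306 cells of the mock section and 3176 of 44282 cells of the SspA+HDM section were members, 4227 of 59588 in all. The dorsal skin of C57BL/6 mice had been shaved and depilated and then received PBS (mock) or SspA and HDM, put on the skin, and 5-µm sections of fixed, paraffin-embedded tissue were measured 7 days after treatment with Xenium, which decodes 379 genes of a mouse tissue panel in place. The labels do not spell out SspA or HDM, and they give no age or sex of the mice. Each treatment is represented by 1 sample, which allows no test between treatments, and every fold change below compares 2 libraries, with an exact conditional binomial interval that covers counting error only. Each section held 2 strips of tissue, whose values are given side by side and not as replicates. The members were chosen by their measured shares of Lor and Asprv1, so these 2 genes are given as a description. The mock section yielded 2461475 gene transcripts of quality 20 or more, 94.5% of them inside cell outlines, and the SspA+HDM section 8124205, of which 97.6% were inside, and the most frequent control feature counted 34 and 127.

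In the granular layer, keratinocytes that have left the basal layer fill with keratohyalin granules and lamellar bodies and build the cornified envelope, a cross-linked protein shell under the plasma membrane. Loricrin and involucrin (Ivl) are cross-linked into that envelope, proteins of the late cornified envelope family (such as Lce1m) join it late, and Asprv1 cleaves profilaggrin. The cells then lose their nuclei and become the dead cornified layer that serves as the barrier of the skin.

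The third marker of the layer, Cnfn, which encodes the envelope protein cornifelin and was not used to choose cells, was 5.05 times higher in members than in other epithelial cells in mock and 14.2 times higher in SspA+HDM. Levels are in CPM, a gene's scaled share of all panel transcripts summed over a group of cells, and other epithelial cells are non-members in which Trim29, Dsc3, Serpinb5 and S100a14 made up at least 8% of transcripts (5709 in mock and 19381 in SspA+HDM). At the selection threshold, the 246 mock cells with 7 to 8% of Lor and Asprv1 had 1339.7 CPM of Cnfn and the 210 cells with 8 to 9% had 1436 CPM. In SspA+HDM, 452 cells just outside had 9422 CPM and 434 just inside had 13245 CPM. Cells on either side of the threshold differed little in Cnfn in mock, and those inside had the higher level in SspA+HDM.

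The label did not hold for all members. A subset in which Cd36, Nupr1, Mgll and Krt79 held at least 10% of the transcripts, a limit set after the data were seen, counted 267 cells in mock (25.4% of members) and 287 in SspA+HDM (9.04%). These Nupr1-rich cells carried Asprv1 at 113686 CPM in mock and 114935 CPM in SspA+HDM, but Lor at only 3335 and 1237 CPM and Cnfn at 129 and 247 CPM. Near that limit lay 60 mock and 107 SspA+HDM members with 5 to 10% of the 4 genes and 37 and 39 with 10 to 15%. In 79.4% of all Nupr1-rich cells in mock and 85.7% in SspA+HDM no Lor transcript was counted. They lay deep, at a median of 64.6 µm under the outer tissue edge in mock and 129.99 µm in SspA+HDM, in small groups along the strips. The remaining members, 784 in mock and 2889 in SspA+HDM, are called outer members. Their median depths were 2.47 and 7.03 µm, where 0 is the edge traced by the outermost 2% of cell centres in 50-µm bins. Of the outer members, 86.9% in mock and 72.1% in SspA+HDM lay within 20 µm of the edge.

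**Figure D1:**
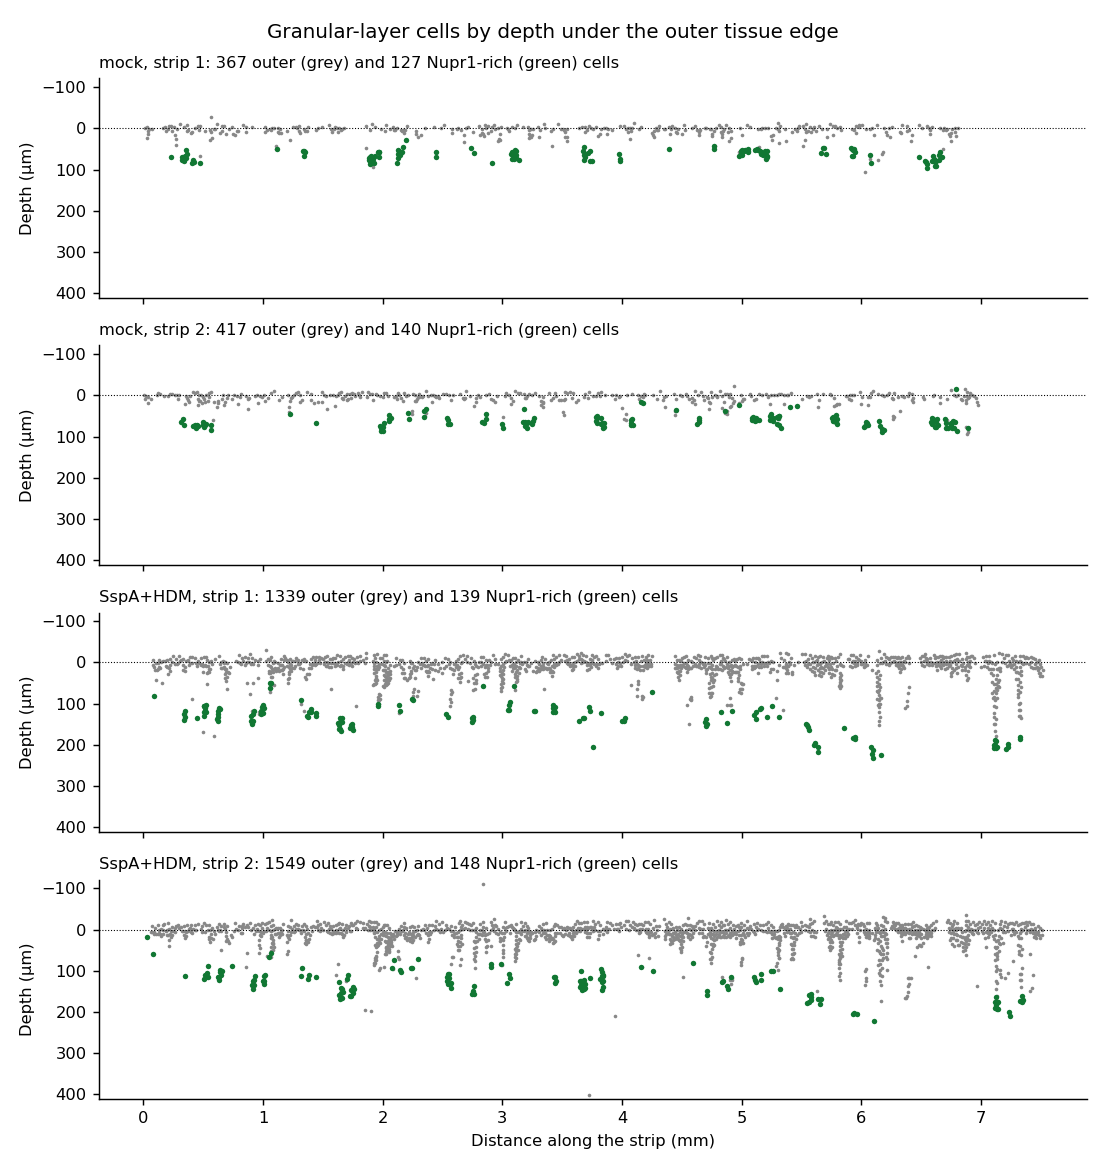
Depth of each granular-layer cell under the outer tissue edge (µm, vertical axis, 0 is the edge and values grow downwards) against the distance along the strip (mm), in the 2 strips of each section. Grey points are outer members and green points Nupr1-rich members, which form groups at a median of 64.6 µm in mock and 129.99 µm in SspA+HDM.

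The layout of the 2 strips of a section was compared by their Nupr1-rich cells. These lie in groups and are not separate positions, so the values are a description. Of the 127 Nupr1-rich cells of mock strip 1, 93.7% had one in strip 2 within 0.1 mm of the same distance along the strip, while 72.9% of the length of strip 1 lies that close to one. The corresponding values in SspA+HDM were 132 of 139 cells against 77.8% of the length. For outer members both values were 100% in each section, which says nothing of layout. Whether the strips are from 1 mouse, or are neighbouring cuts of 1 block, is not in the labels.

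Granular-layer cells, like other epithelial cells, were more densely packed along the skin in SspA+HDM. The comparison of granular-layer shares depended on which members were counted. Members were 6.87% of cells in mock (95% Clopper-Pearson interval 6.47 to 7.28) and 7.17% in SspA+HDM (6.93 to 7.42). The strips gave 6.90% and 6.84% in mock and 7.26% and 7.10% in SspA+HDM. Outer members alone were 5.12% of cells in mock (4.78 to 5.48) and 6.52% in SspA+HDM (6.30 to 6.76), a ratio of 1.27. A selection limit of 5% gave a ratio of shares of 0.844 and one of 12% gave 1.30, so the direction of the share turned with the limit. Per mm of strip there were 75.4 members in mock (strips 71.4 and 79.3) and 207 in SspA+HDM (strips 193 and 221), which is 2.74 times as many. The outer members accounted for this, with 56.2 and 188 per mm, a ratio of 3.34. The Nupr1-rich cells stood at 19.2 per mm in mock and 18.7 in SspA+HDM. Both strips with SspA+HDM lay above both mock strips in outer members per mm, and the strips of the 2 sections overlapped in Nupr1-rich cells per mm. Other epithelial cells stood at 410 per mm in mock and 1262 in SspA+HDM. All cells with at least 20 transcripts numbered 15306 over 13.94 mm in mock and 44282 over 15.4 mm in SspA+HDM. The higher number per mm was therefore not particular to the granular layer.

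Members lay closer to other members in SspA+HDM. Among the 6 cells nearest to a member, 26.4% were members in mock and 60.1% in SspA+HDM, and 15.2% of mock members against 3.94% of SspA+HDM members had no member among them. Most of the other neighbours were epithelial, at 66.4% and 32.2%. On the map of members by depth, the mock cells formed an interrupted row along the edge and the SspA+HDM cells a denser band that reached further down. In SspA+HDM, 434 of 2888 outer members in the strips lay deeper than 40 µm, and in mock 41 of 784. These deep cells were richer in the follicle keratin Krt79 than the outermost ones, at 15088 against 782 CPM in SspA+HDM and 57909 against 1345 CPM in mock. How many of them belong to follicles and not to the granular layer was not tested.

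Each outline also held more RNA molecules in SspA+HDM. The median member counted 176 gene transcripts in mock (strips 172 and 182) and 386 in SspA+HDM (374 and 401), whereas other epithelial cells had 116 and 152. Median outline areas were 188 µm2 in mock and 157 µm2 in SspA+HDM, against 72.3 and 61.8 µm2 for other epithelial cells. Members therefore had the larger outlines in both sections, and their median transcripts per µm2 went from 1.005 in mock to 2.60 in SspA+HDM. Other epithelial cells had 1.70 and 2.82, so the density was higher in SspA+HDM there too and above that of members in both sections. The share of their transcripts lying over the segmented nucleus was 27.98% and 21.7%, below the 40.02% and 42.98% of other epithelial cells. A large outline can take in RNA of cells above or below, and basal-cell genes are therefore given beside the genes below.

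In the members, 23 of 117 genes (19.7%) stood at least 2-fold higher in SspA+HDM than in mock, and 51 (43.6%) at least 2-fold lower. The 117 genes are those with at least 100 member transcripts in 1 section, without Lor and Asprv1. Over the whole section, 14.7% and 12.7% of 346 genes passed the same limits. Between every pair of strips, 21 genes (17.9%) were higher and 47 (40.2%) lower. CPM compares shares of a cell's RNA, and members of SspA+HDM held 2.10 times the transcripts of mock members (403 against 192 on average). The median gene differed by -0.83 on the log2 CPM scale and by 0.24 in log2 transcripts per cell, and per cell 44 genes (37.6%) were at least 2-fold higher and 26 (22.2%) lower. Of the 51 genes lower by CPM, 49 were also lower per cell, 26 of them at least 2-fold. With outer members alone, 24 of 111 genes (21.6%) were higher and 46 (41.4%) lower. For Ldhb, a lactate dehydrogenase subunit, leaving out the Nupr1-rich cells turned the direction, from 2.51-fold lower to 2.28-fold higher in SspA+HDM.

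As shares of the RNA, genes of the cornified envelope went in different directions. Of 54 listed genes of the envelope and late differentiation, the panel held 7. Of the 5 that the selection did not use, 1 was at least 2-fold higher in SspA+HDM (Cnfn), 1 lower (Lce1m) and 3 lay within 2-fold, with a median log2 difference of 0.49 against -0.83 over all genes compared. Per cell 4 were at least 2-fold higher and 1 lower, with a median of 1.56 on the log2 scale (0.24 for all genes compared), and Lce1m was the lower one. Cnfn was at 2346 CPM in mock against 19995 CPM in SspA+HDM. Its strips had 1808 and 2799 CPM in mock and 18823 and 20939 CPM in SspA+HDM. It was 8.52-fold (95% counting interval 7.78 to 9.35) higher, and both SspA+HDM strips lay far above both mock strips. Lce1m, a late cornified envelope gene, took the opposite course, with strips at 15990.2 and 17362 CPM in mock and 2205 and 2308 CPM in SspA+HDM. It was 7.40-fold (95% counting interval 7.04 to 7.78) lower, and 3.53-fold lower per cell. Its neighbour on chromosome 3 with no coding gene between them, Crct1, did not share that course and stood at 40132 CPM in mock against 56530 CPM in SspA+HDM. Ivl, which encodes involucrin, was at 22070.5 CPM in mock against 32686 CPM in SspA+HDM, 1.48-fold (95% counting interval 1.44 to 1.53) higher. Sbsn, which encodes suprabasin of the upper epidermis, held a like share of the RNA, at 123643 CPM in mock against 120084 CPM in SspA+HDM, and thus 2.04 times higher per cell. Lor and Asprv1, fixed by the selection, stood at 65022 and 57057 CPM in mock outer members and 63243 and 77685 CPM in those of SspA+HDM.

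Cnfn and Lce1m were also compared by the share of cells in which they were seen. Of outer members, 35.5% in mock and 91.6% in SspA+HDM had a Cnfn transcript. After every cell was thinned to 50 transcripts, leaving out 59 and 107 shallower cells, the shares were 12.97% and 57.7%. For Lce1m the thinned shares were 56.4% in mock and 8.66% in SspA+HDM, from 76.7% and 24.96% before thinning. Cells rich in skeletal muscle genes, which should lack both, had Cnfn in 0.389% and 0.900% and Lce1m in 0.632% and 0.109%, at median depths of 295 and 290 transcripts. Outer members, for comparison, had medians of 185 and 404.

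The 250 bases before the RefSeq start are shown for Lor, the envelope gene that helped to select the cells, and for Lce1m, the envelope gene on the lower side in SspA+HDM, from GRCm38.p6, each read 5′ to 3′ on the gene's strand. Both genes lie on the minus strand, and the stretches are chr3:92083143-92083392 for Lor and chr3:93019062-93019311 for Lce1m. Capitals mark TATAAA and TGANTCA, the core of AP-1 sites, each searched on both strands.
Lor: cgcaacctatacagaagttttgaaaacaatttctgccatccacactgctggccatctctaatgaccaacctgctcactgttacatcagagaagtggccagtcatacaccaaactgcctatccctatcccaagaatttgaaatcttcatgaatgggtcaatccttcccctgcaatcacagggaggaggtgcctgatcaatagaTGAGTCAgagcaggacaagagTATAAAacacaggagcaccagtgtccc
Lce1m: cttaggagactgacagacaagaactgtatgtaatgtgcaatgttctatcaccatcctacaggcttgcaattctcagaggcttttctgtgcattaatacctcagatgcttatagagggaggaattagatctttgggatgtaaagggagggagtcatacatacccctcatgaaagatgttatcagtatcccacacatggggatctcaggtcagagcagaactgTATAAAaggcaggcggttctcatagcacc
Both hold TATAAA once, 21 and 23 bases before the start, and Lor alone holds TGANTCA, 41 bases before it. Among 32851 promoter stretches of that length in the table, 12.4% hold TATAAA and 6.75% TGANTCA. A match is a description of letters, not of a bound site.

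Inhibitors of cysteine proteases were traces in mock and a large share of the RNA in SspA+HDM. Stfa2l1, a member of the stefin A family of cathepsin inhibitors, had 10 transcripts in all mock members and 38348 in those of SspA+HDM. The strips had 54.1 and 45.6 CPM in mock and 29571 and 30266 CPM in SspA+HDM. That is 605-fold (95% counting interval 329 to 1262) higher. Cstdc4, a gene of the same cystatin superfamily, went from 141 and 109 CPM in the mock strips to 12958 and 13112 CPM, 105-fold (95% counting interval 71.4 to 163) higher. In both genes the 2 strips of a section were close to each other and the sections lay far apart. The other 2 of the 4 measured genes of epidermal proteases and inhibitors (of 46 listed) were lower. Over all genes compared, 19.7% were at least 2-fold higher and 43.6% lower. Serpinb5, which encodes the serpin maspin, was at 41523 CPM in mock against 16288 CPM in SspA+HDM, 2.55-fold (95% counting interval 2.49 to 2.61) lower, and Capns2, a calpain subunit, 2.95-fold (95% counting interval 2.65 to 3.28) lower. Per cell these 2 were 1.22-fold and 1.41-fold lower, under the 2-fold limit. Serpinb11, a serpin that was not on that list, was 84.6-fold (95% counting interval 53.5 to 143) higher, from 54.1 and 119 to 7442 and 7616 CPM.

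Stfa2l1 and Cstdc4 are adjacent coding genes on the plus strand of chromosome 16, and their upstream stretches, chr16:36156561-36156810 and chr16:36183962-36184211, are shown because the 2 genes differed between the sections together. Capitals mark TTTAAA, which reads the same on both strands.
Stfa2l1: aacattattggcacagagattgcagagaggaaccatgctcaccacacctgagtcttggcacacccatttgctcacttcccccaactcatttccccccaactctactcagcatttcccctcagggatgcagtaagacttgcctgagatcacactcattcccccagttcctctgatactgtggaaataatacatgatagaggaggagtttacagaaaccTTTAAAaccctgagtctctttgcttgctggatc
Cstdc4: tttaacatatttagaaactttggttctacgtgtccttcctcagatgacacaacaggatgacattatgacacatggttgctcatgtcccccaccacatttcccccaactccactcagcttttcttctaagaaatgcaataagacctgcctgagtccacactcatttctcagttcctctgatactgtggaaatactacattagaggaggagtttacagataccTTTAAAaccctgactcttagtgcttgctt
In a global alignment 196 of 269 columns were identical (72.9%), against 52.7% for Lor and Lce1m. TTTAAA stands 27 and 23 bases before the start, in a motif held by 12.1% of all stretches, and neither holds TATAAA or TGANTCA. Stefin A genes form a family of close copies, and the probe sequences were not used here, so how far signal is shared among copies was not tested. Across 2661 outer members of SspA+HDM with at least 100 transcripts, the shares of Stfa2l1 and Cstdc4 had a Spearman correlation of 0.35, and those of Stfa2l1 and Uox 0.48. These are descriptions over cells of 1 section, which share depth and library.

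Of 41 listed genes of keratinocyte activation the panel held 8, of which 7 could be compared. Of the 7, 5 stood at least 2-fold above mock, 1 below it and 1 within 2-fold, with a median log2 difference of 2.71. Over all genes compared, 19.7% were higher and 43.6% lower, with a median of -0.83. The list, which holds Uox, Cxcr2 and 2610528A11Rik, was drawn up with earlier results of these data known, so its counts are a description. Krt16, the keratin of stressed and regenerating epidermis, had strips at 2956 and 5426 CPM in mock and 79009 and 80077 CPM in SspA+HDM, 18.5-fold (95% counting interval 17.3 to 19.8) higher. Uox, which encodes the peroxisomal enzyme urate oxidase, had 3 transcripts in 1051 mock members and 15321 in 3176 members of SspA+HDM, with strips at 11754 and 12141 CPM there. The ratio was 806-fold (95% counting interval 276 to 3909). Areg, a ligand of the EGF receptor, was at 564 CPM in mock against 2437 CPM in SspA+HDM, and Cxcr2, a chemokine receptor, at 183 CPM in mock against 1199.8 CPM in SspA+HDM. In both strips of SspA+HDM these genes lay above both mock strips. 2610528A11Rik, which encodes a ligand of the receptor GPR15, had 5 transcripts in mock and 350 in SspA+HDM, 11.05-fold (95% counting interval 4.69 to 34.2) higher by CPM. Il1r2, the decoy receptor for interleukin 1, was within 2-fold at 3608 CPM in mock against 3122 CPM in SspA+HDM (1.81 times higher per cell), and Krt13, a keratin of internal epithelia, was 21.2-fold (95% counting interval 18.4 to 24.5) lower. Together Krt16, Stfa2l1, Cstdc4 and Uox made up 0.448% of the transcripts of mock members and 13.5% of those of SspA+HDM members.

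**Figure D2:**
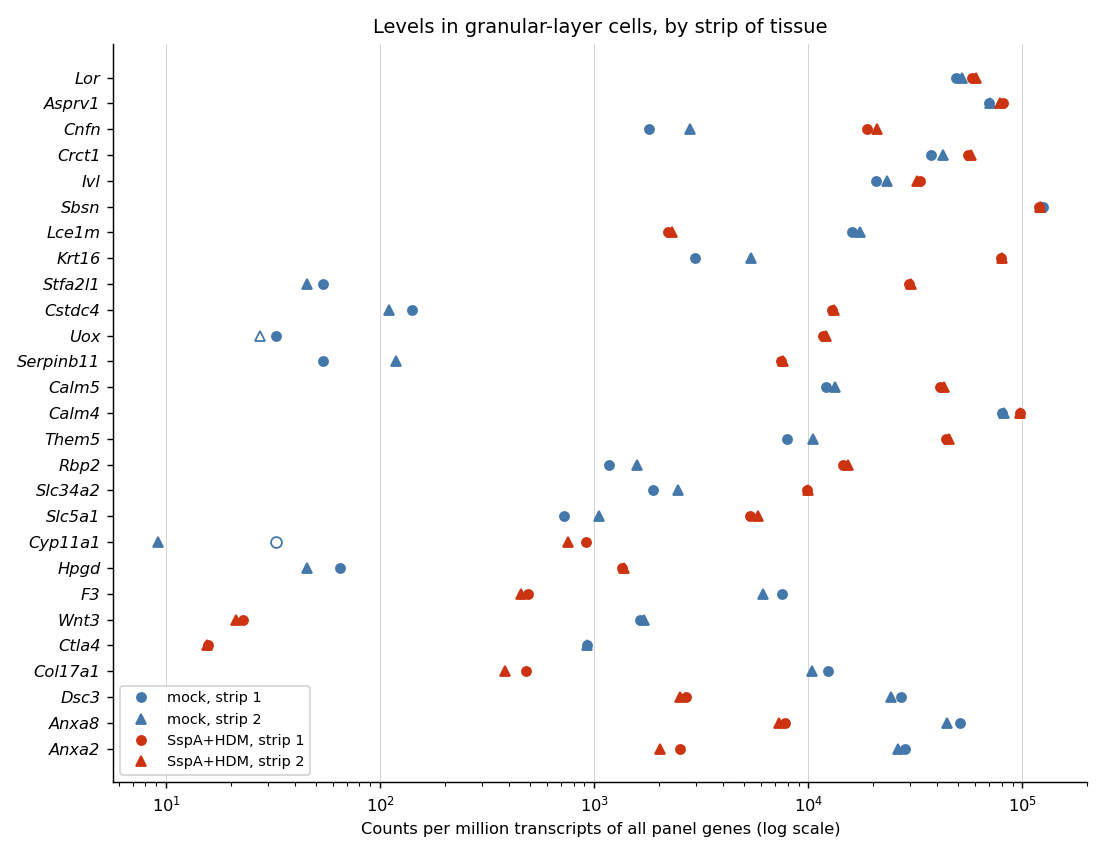
Levels of 27 genes in granular-layer cells (CPM over the 379 panel genes, log scale) in each of the 2 strips of the mock (blue) and SspA+HDM (red) sections. Hollow marks stand at 3 transcripts where none was counted. Stfa2l1 lies at 54.1 and 45.6 CPM in the mock strips and 29571 and 30266 CPM in the SspA+HDM strips, while Sbsn hardly differs and Lce1m and Col17a1 lie on the other side.

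Them5 and Rbp2, of lipid and retinoid metabolism, were higher in SspA+HDM. Both genes of the lipid and retinoid list that could be compared (of 36 listed and 3 measured) were at least 2-fold higher, against 19.7% of all genes compared. Them5, a fatty acyl-CoA thioesterase, was at 9340.01 CPM in mock against 44719.9 CPM in SspA+HDM, 4.79-fold (95% counting interval 4.57 to 5.02). Rbp2, a cellular retinol-binding protein, went from 1391 to 14980.1 CPM, 10.8-fold (95% counting interval 9.57 to 12.2). Lipid-handling genes outside that list lay on both sides. The cytochrome P450 gene Cyp4b1 was 12.2-fold (95% counting interval 8.80 to 17.1) lower, and Mgll, a monoacylglycerol lipase, was 4.12-fold lower in outer members. Mgll is among the 4 genes whose low share defines outer members, so its level there is limited by that choice. Hpgd, which inactivates prostaglandins, was 25.1-fold (95% counting interval 13.97 to 50.3) higher, and Cyp11a1, which cleaves the side chain of cholesterol in steroid synthesis, had 1 transcript in mock against 1060 in SspA+HDM, a ratio of 167-fold (95% counting interval 29.96 to 6614). Abcb11, the bile salt export pump of liver, had 3 transcripts in mock and 300 in SspA+HDM (15.8-fold (95% counting interval 5.35 to 76.96) higher by CPM), and Oit1 4 and 722 (28.5-fold (95% counting interval 11.1 to 105) higher). These 3 genes were next to undetected in mock members, which leaves their ratios wide.

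Of 28 listed transport genes 9 were measured and 7 compared, of which 3 were higher, 2 lower and 2 within 2-fold. Over all genes compared, 19.7% were higher and 43.6% lower. Per cell 5 were at least 2-fold higher and 1 lower, against 37.6% and 22.2% of all genes compared. Slc34a2, a sodium-phosphate cotransporter, was 4.54-fold (95% counting interval 4.13 to 4.997) higher, from 2193 to 9945 CPM. Slc5a1, the sodium-glucose cotransporter SGLT1, was 6.22-fold (95% counting interval 5.36 to 7.24) higher, and Fxyd4, of the FXYD family that modulates Na,K-ATPase, 15.8-fold (95% counting interval 10.97 to 23.6). Gabrp, a GABA receptor subunit, went the other way, from 584 to 16.4 CPM, and so did Fxyd3, from 4429.9 to 1188 CPM (1.78-fold lower per cell). Among 6 genes of calcium binding, 1 was higher, 2 lower and 3 within 2-fold, and per cell 3 were at least 2-fold higher and 1 lower. Beside the 43.6% of all genes that were lower by CPM, 2 of 6 is no excess. Calm5, a calmodulin-like gene of epidermis, was at 12745 CPM in mock against 42236 CPM in SspA+HDM, 3.31-fold (95% counting interval 3.19 to 3.45) higher, while the related Calm4 was at 81323 CPM in mock against 97507 CPM in SspA+HDM. The annexin gene Anxa8 was at 47452 CPM in mock against 7511 CPM in SspA+HDM, 6.32-fold (95% counting interval 6.14 to 6.50) lower.

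Genes of the suprabasal layers were divided by CPM as well. Of 30 listed genes 8 were measured and compared, of which 2 were higher in SspA+HDM (Calm5 and Them5), 3 lower (Dsc3, Serpinb5 and Trim29) and 3 within 2-fold, with a median log2 difference of -0.32. These counts lie near the shares over all genes compared, with 19.7% higher and 43.6% lower. Per cell 4 were at least 2-fold higher and 1 lower (37.6% and 22.2% of all genes), with a median of 0.75. The balance of this list thus turned with the scale, as it did over all genes. Trim29 was at 47814 CPM in mock against 18088 CPM in SspA+HDM, 2.64-fold (95% counting interval 2.58 to 2.71) lower but only 1.26-fold lower per cell. S100a14, an S100 calcium-binding protein gene, was at 21848 CPM in mock against 14531 CPM in SspA+HDM and 1.39 times higher per cell. Cldn4, a tight-junction claudin, was at 8508 CPM in mock against 7196 CPM in SspA+HDM (1.77 times higher per cell), with strips at 8466 and 8544 CPM in mock against 7086 and 7285 CPM. Of 3 measured genes of cell division, 2 could be compared. Stmn1 was 4.68-fold (95% counting interval 4.16 to 5.28) lower. Ube2c was 1.91-fold (95% counting interval 1.41 to 2.56) lower by CPM but 1.10 times the mock level per cell. The list summed to 2804 and 3073 CPM in the mock strips and 729 and 671 CPM in the SspA+HDM strips, against 11780.3 and 21411 CPM in other epithelial cells.

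The 51 genes lower in SspA+HDM members included Col17a1 of basal keratinocytes and the signalling gene Wnt3. In mock, 29 of the 51 were at least 2-fold lower in members than in other epithelial cells, near the 58% of all 174 genes for which that held, and the 51 include Dsc3, Trim29 and Serpinb5, which define the other epithelial cells. Col17a1, the hemidesmosomal collagen of basal keratinocytes, was at 11310 CPM in mock against 427 CPM in SspA+HDM, with strips at 12407 and 10386 CPM in mock against 479 and 385 CPM. It was 26.5-fold (95% counting interval 24.1 to 29.1) lower. Wnt3, a Wnt ligand, was at 1678 CPM in mock against 21.9 CPM in SspA+HDM, 76.7-fold (95% counting interval 52.1 to 117) lower. Satb1, a chromatin organizer, was at 1272 CPM in mock against 50.8 CPM in SspA+HDM, and the actin-severing gene Scin at 1257 CPM in mock against 49.2 CPM in SspA+HDM. Both mock strips lay above both SspA+HDM strips in each of these genes. Dsc3, a desmosomal cadherin used to define other epithelial cells, was 9.84-fold (95% counting interval 9.42 to 10.3) lower, and Anxa2 12.1-fold (95% counting interval 11.6 to 12.7). In outer members alone Col17a1 stood at 12419 and 316 CPM. Both genes measured of the 19 listed for basal keratinocytes sum to 12582 CPM in mock members and 2425 CPM in SspA+HDM members, and to 53582 and 56936 CPM in other epithelial cells. The second of them, Aqp3, was at 1272 CPM in mock against 1998 CPM in SspA+HDM. The part of basal RNA inside the outlines of mock members in these differences was not tested.

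A smaller group of genes was lower in SspA+HDM although mock members held them at or above the level of other epithelial cells. Of the 51 genes, 8 were of this kind, namely Lce1m, Tspan8, Ctla4, F3, Gabrp and Ifitm6, and Cd36 and Nupr1, which follow the Nupr1-rich cells. Ctla4, known as an inhibitory receptor of T cells, had 186 transcripts in mock members (strips 920.2 and 921 CPM) and 20 in SspA+HDM (strips 15.8 and 15.5 CPM). It was 10.5 times higher in mock members than in other epithelial cells. The T cell gene Cd3d had 7 transcripts and Cd8a 0 in the same mock members, and 84.4% of the Ctla4 transcripts lay over the segmented nucleus, against 27.98% of all transcripts. F3, which encodes tissue factor, was at 6786 CPM in mock against 471 CPM in SspA+HDM, and Ifitm6, an interferon-induced membrane protein gene, at 1455 CPM in mock against 17.97 CPM in SspA+HDM. Tspan8, a tetraspanin, was at 6464 CPM in mock against 2735 CPM in SspA+HDM, and 1.13-fold lower per cell. In each of these genes both mock strips lay above both SspA+HDM strips.

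Against other epithelial cells of the same section, 15 of 174 genes (8.62%) were at least 2-fold higher in members in mock and 26 of 259 (10%) in SspA+HDM, with the genes used to select either class left out, while 58% and 70.7% were at least 2-fold lower. In both sections alike, 9 of 172 genes (5.23%) were higher: Aif1l, Cldn4, Cnfn, Crct1, Gm94, Ivl, Lce1m, Slc34a2 and Tspan8. Aif1l, an actin-binding gene, was 6.27 times higher in members in mock and 51.2 times in SspA+HDM. For Crct1 the ratios were 6.22 and 18.04, and for Lce1m 4.79 and 85.1. The contrast between members and the rest of the epithelium was thus sharper in SspA+HDM for these 3 genes, but milder for Slc34a2, at 5.38 and 2.17. Lce1m, though lower in SspA+HDM members than in mock ones, was at 26.6 CPM in the other epithelial cells of that section. With members and other epithelial cells both limited to those within 100 µm of the edge, Aif1l was 6.08 and 62.2 times higher and Slc34a2 5.23 and 1.63 times.

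Other genes stood above the rest of the epithelium in 1 section and below it in the other. Serpinb11 was 0.0852 times the level of other epithelial cells in mock and 7.93 times in SspA+HDM, and Hpgd 0.131 and 5.52 times. Krt16, by contrast, was 1.34 and 1.97 times, so that its higher level in SspA+HDM was also seen in the rest of the epithelium. Cstdc4 was 0.373 and 0.563 times, below the other epithelial cells in both sections. Stfa2l1 and Uox were 3.41 and 4.06 times higher in members in SspA+HDM. Whether these contrasts differ between treatments could not be tested with 1 section each.

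**Figure D3:**
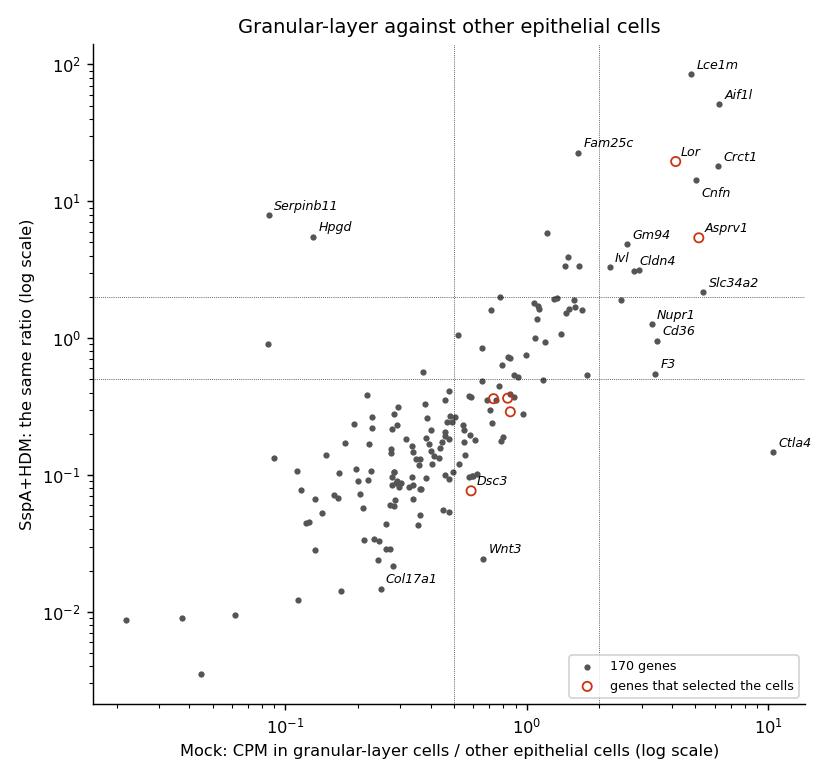
Ratio of CPM in granular-layer cells to CPM in other epithelial cells, mock on the horizontal and SspA+HDM on the vertical axis (both log scales), for 170 genes with more than 3 transcripts in each class of each section. Red rings are the 6 genes that selected the cells, and dotted lines mark 2-fold. Lce1m, Aif1l, Crct1 and Cnfn lie at the upper right, and Serpinb11 and Hpgd at the upper left.

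Outer members differed with depth, above all in SspA+HDM. Over 5 depth ranges (outside the edge, 0 to 10, 10 to 20, 20 to 40 and over 40 µm, with 955, 674, 453, 371 and 434 cells), Cnfn ran through 26835, 19924, 17644, 16316 and 16075 CPM. Cyp11a1 ran through 1627, 740.4, 332, 166 and 315 CPM, and Aif1l ran through 16024, 5383, 3919, 6046 and 8195 CPM. These genes were highest in the outermost cells. The reverse held for Rbp2, which ran through 9054, 18039, 21405, 20274 and 19268 CPM, and for the sodium-glucose cotransporter Slc5a1, at 2692 CPM in the outermost and 9141 CPM in the deepest range. Ivl was 22187 CPM in the outermost range and 44122 CPM at 20 to 40 µm. The stefin gene Stfa2l1 was 33961 CPM in the outermost and 16456 CPM in the deepest range. Krt16 varied less, between 70064 and 92149.8 CPM.

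The nuclear share of transcripts also changed with depth, from 16.9% outside the edge to 28.9% over 40 µm in SspA+HDM, and the median outline area from 316 to 118 µm2. In mock, with 284, 284, 113, 62 and 41 cells, Cnfn was 3614, 2500.2, 2608, 3331 and 3353 CPM, so it held no such slope. Col17a1 there was 7455 CPM in the outermost range and 20768 CPM at 10 to 20 µm, and in SspA+HDM it was between 226 and 614 CPM at every depth. Even the outermost mock members therefore held more Col17a1 than any depth range of SspA+HDM. F3 ran from 12300.1 CPM in the outermost mock members to 1586 CPM at 20 to 40 µm, and Ctla4 from 1783 to 605 CPM at 10 to 20 µm. The 41 mock cells over 40 µm carried the follicle keratin Krt79 at 57909 CPM, against 1345 CPM in the outermost range, and the deepest range of SspA+HDM 15088 against 782 CPM.

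**Figure D4:**
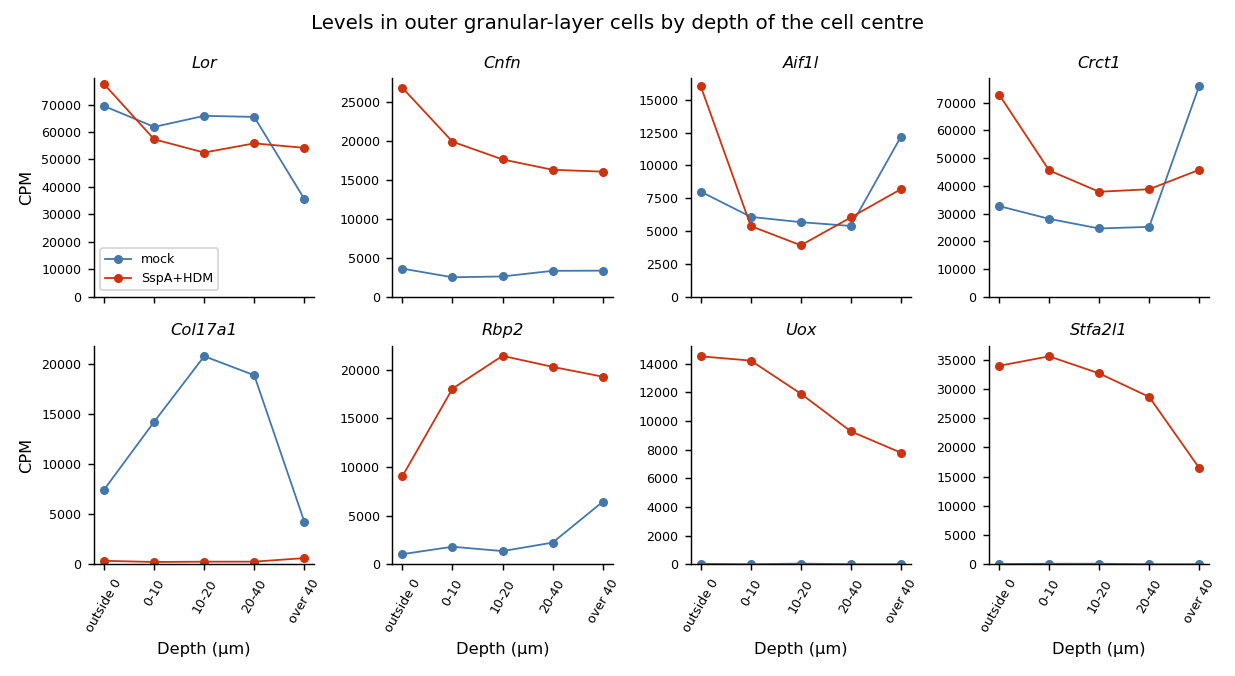
CPM of 8 genes in outer granular-layer cells (vertical axes start at 0) by depth of the cell centre under the outer tissue edge, mock in blue and SspA+HDM in red. Cnfn goes from 26835 CPM in the outermost to 16075 CPM in the deepest range of SspA+HDM while Rbp2 goes from 9054 to 19268 CPM, and Col17a1 is high in mock at every depth.

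Levels in SspA+HDM members also changed along the skin, in the same way in both strips. Each strip was cut into 4 equal lengths, each with 274 to 479 outer members. Uox was at 8337, 4754, 20049 and 17059 CPM from the first to the last length of strip 1 and at 8258, 5124, 19399 and 16660.1 CPM in strip 2. In each strip the first 2 lengths lay below the last 2. Cnfn was at 13375, 14790.3, 25468 and 25822 CPM in strip 1 and 14106, 18808, 27352 and 25218 CPM in strip 2, and Serpinb11 at 4706, 5171, 9218 and 12301 CPM and 4752, 5799.9, 8279 and 11874 CPM. Cxcr2 ran the other way, at 2344, 1179, 1140.5 and 658 CPM and 2234, 1391, 1010.3 and 768 CPM. Krt16 showed no such course, at 89210.2, 72844, 89997 and 85858 CPM and 88711, 75511, 90027 and 84334 CPM, nor did Them5, which stayed between 46043 and 49379.6 CPM. The median depth of the cells per length ranged from 2.29 to 10.5 µm and their median transcript number from 361 to 456. The part of either in the course along the strip was not tested. In mock, Cnfn was between 1742 and 5125 CPM over the 8 lengths, below every length of SspA+HDM.

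**Figure D5:**
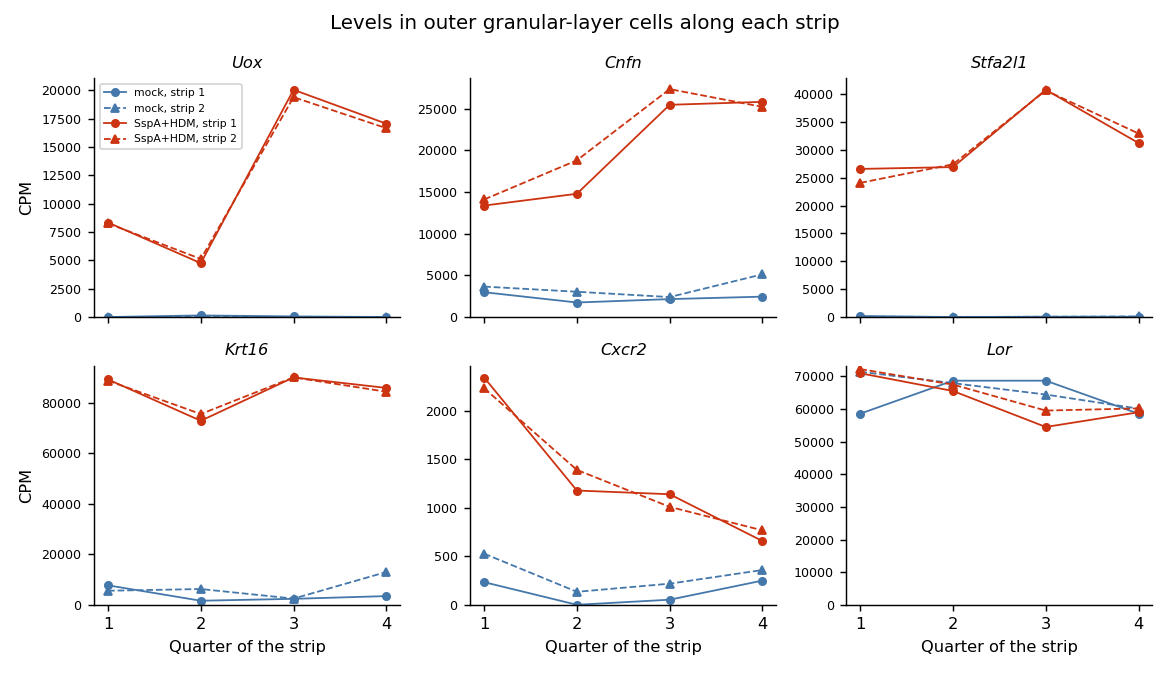
CPM of 6 genes in outer granular-layer cells in 4 equal lengths of each strip (vertical axes start at 0), mock in blue, SspA+HDM in red, strip 1 as circles and strip 2 as triangles. Both SspA+HDM strips have Uox lowest in the second length, at 4754 and 5124 CPM, and highest in the third, at 20049 and 19399 CPM.

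In the Nupr1-rich members fewer genes passed the 2-fold limit between the sections, with 4 of 41 compared (9.76%) on the higher side and 4 (9.76%) on the lower. Car2, a carbonic anhydrase, had 5 transcripts in mock members of this kind against 451 in SspA+HDM, a ratio of 57.6 (95% counting interval 24.5 to 178). In outer members of SspA+HDM it was at 25.7 CPM, so the difference of Car2 among all members came from these cells. Krt16 was 9.72 times higher (6.43 to 15.4), at 516 and 5018 CPM, both far below outer members. Stfa2l1 had 0 and 11 transcripts there, Cnfn 6 and 18, and Uox 0 and 0, so the genes that marked SspA+HDM in outer members were scarce in these cells. Their levels of Crct1 were 72864 and 110686 CPM, above outer members in both sections.

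Beside the 4 genes that set them apart, Nupr1-rich cells held Sox9, a transcription factor of hair follicles, at 11986 CPM in mock against 7836 CPM in SspA+HDM, 15.7 and 37.4 times the level of outer members. Ldhb was 54.3 and 24.2 times higher and Fmo5, a flavin monooxygenase, 13.6 and 41.4 times. Over all genes compared, 13.8% of 65 in mock and 32.7% of 101 in SspA+HDM were at least 2-fold higher in them than in outer members, and 46.2% and 44.6% lower. Lor, Asprv1 and the 4 genes that defined these cells were left out of these counts. Of 4 measured genes of hair follicle and infundibulum (23 listed), the summed level was 78696 and 66651 CPM in Nupr1-rich cells and 4403 and 2519 CPM in outer members. Krt79, which helped to define the set, is one of the 4. No gene of the sebaceous gland list was measured. These cells were 25.4% of mock members, and they lower the mock level of genes such as Cnfn and Lce1m among all members. In outer members alone Cnfn was 7.04 times higher in SspA+HDM and Lce1m 9.04 times lower.

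Markers of other cell types were counted in the members, and their part in the differences was not tested. The 7 measured fibroblast genes (of 13 listed) summed to 3443 and 3903 CPM in the mock strips and 1283 and 922 CPM in the SspA+HDM strips. By CPM 4 of 4 compared genes were lower in SspA+HDM, against 43.6% of all genes compared. Per cell 1 was at least 2-fold lower, against 22.2% of all genes, and Bgn was at 1.01 times the mock level. The 8 macrophage and monocyte genes summed to 411 and 410.3 CPM in the mock strips and 181 and 168 CPM in the SspA+HDM strips. The 4 T cell genes summed to 1061 and 994 CPM in the mock strips and 78.9 and 91.6 CPM in the SspA+HDM strips. Ctla4 made up most of the T cell sum in mock but not in SspA+HDM. Of the T cell genes Cd8a was at 0 in mock, where a count of 0 allows up to 3 transcripts. The 6 measured neutrophil genes summed to 4049 and 3939 CPM in the mock strips and 34172 and 34452 CPM in the SspA+HDM strips, but that list includes Stfa2l1, Il1r2 and Cxcr2. Its other genes are Csf3r, Mmp8 and Mmp9, and the level of Mmp9 is not given here. Csf3r and Mmp8 had 4 and 1 transcripts in mock members and 24 and 14 in SspA+HDM members. For Csf3r that is 19.8 against 18.7 CPM and for Mmp8 4.95 against 10.9 CPM. The 5 endothelial genes summed to 227 and 292 CPM in the mock strips and 105 and 73.3 CPM in the SspA+HDM strips, and the 4 mural-cell genes to 747 and 894 CPM in the mock strips and 249 and 179 CPM in the SspA+HDM strips. The mast cell gene Cpa3 was at 86.6 and 82.1 CPM in the mock strips and 103 and 43.7 CPM in the SspA+HDM strips. Epcam, the 1 measured gene of the Langerhans cell list, is also epithelial and was at 9484 CPM in mock against 16492 CPM in SspA+HDM. The 4 adipocyte genes, which include Cd36, summed to 1382 and 738 CPM in outer members of mock and SspA+HDM. No melanocyte gene was measured. The 4 skeletal muscle genes summed to 2230.2 and 1486 CPM in the mock strips and 3704 and 344 CPM in the SspA+HDM strips, so strip 1 of SspA+HDM stood apart. The call of the muscle gene Actn3 rested on that strip, at 2.22 times the mock level with it and 0.318 times without it. In that strip Actn3 was 2065 CPM in the outer members of the second of 4 equal lengths and at most 36.9 CPM in the others. Areg, Cd3d, Cd8a, Cldn4, Cpa3, Csf3r, Fmo5, Gm94, Ldhb, Mgll, Mmp8, Mmp9 and S100a14 lie outside the rule for named genes and were named after their values were seen. With members that held no muscle transcript, 21 of 100 genes were higher and 48 lower in SspA+HDM.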

How the data were processed

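The submitters deposited, for each section, a table of decoded transcripts with positions, quality scores and cell assignment and a table of cell outlines. Per the file headers these hold single molecules, so the quality value of a transcript is a score set by the instrument's decoding and positions were taken as µm. Which software decoded the images and drew the outlines is not given in the sources used here. Transcripts with a score of at least 20 that were assigned to 1 of 379 genes were counted per cell (control features and unassigned codewords left out), and cells with at least 20 were kept, with no doublet caller run. Of the 379 genes, 378 matched a RefSeq symbol.

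Members and gene lists were chosen with earlier results of these data known. Strips were found from the gaps between cells. The outer edge was the outermost 2% of cell centres in 50-µm bins. Counts were summed over members and expressed as CPM; genes with at least 100 member transcripts in 1 section were compared, and a ratio of 2 was the limit. Intervals are 95% (Clopper-Pearson for shares, exact conditional binomial for ratios, both counting error only). A simulation of a per-cell comparison of members with 122 genes recovered 35 of 35 changed genes, and 93.4% of the intervals held the true ratio. All its changes were set beyond the 2-fold limit and its counts had counting error only. It therefore tested neither the CPM scale nor variation between cells or samples. Named genes were the layer markers, the 12 highest and 12 lowest ratios, the 10 highest ratios over other epithelial cells per section, and the 2 highest and 2 lowest of each list (every gene of lists under 4). Alternatives were the quality limit, the member rule, the transcript minimums, the compartment, the scale and leaving out each strip. Muscle-gene-rich cells had at least 20% muscle transcripts. The deposited libraries shared 0 cell names. Analyses used Python 3.11.15 with numpy 2.4.6, scipy 1.17.1, pandas 2.3.3, shapely 2.1.2, Biopython 1.88 and matplotlib 3.10.9.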

Additional observations from a re-analysis of the deposited data

Results flagged for a closer look

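Transcripts outside all cell outlines were not used in any comparison, and those of the 3 layer markers were more frequent in SspA+HDM than in mock. Per mm of strip, 784 Lor transcripts lay outside outlines in SspA+HDM against 319 in mock, 603 of Asprv1 against 115, and 58.7 of Cnfn against 3.87. Over all genes, 12682.5 transcripts per mm lay outside in SspA+HDM against 9771 in mock. As a share of all transcripts of the gene in the section, those outside were 11.4% of Lor in SspA+HDM and 17.3% in mock. For Asprv1 the shares were 5.35% and 5.74%, for Cnfn 2.63% and 5.72%, and over all genes 2.40% and 5.53%. The share outside was thus lower in SspA+HDM for each of the 3 markers.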

How the results depend on the processing

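With 1 sample per treatment the limits of these data are the sample number and the outlines, and depth limits the genes with few mock transcripts. No paired analysis was possible because each treatment has 1 sample and no replicate number. The share of granular-layer cells was 1.04 times that of mock, the granular-layer cells per mm of strip 2.74 times, the depth of granular-layer cells below the surface 1.36 µm greater, and 23 and 51 genes were at least 2-fold higher and lower. A member rule of 5% gave 0.844, 2.22, 5.51 µm and 80 lower genes, and one of 12% gave 1.30, 3.43 and a depth difference of -3.07 µm, so the direction of the share and of the depth depends on that limit. Outer members alone, an alternative chosen after seeing the data, gave 1.27, 3.34 and 4.56 µm, and thinning each cell to 50 transcripts gave a share ratio of 0.920. Without the quality filter 93 genes were lower, and 23 in mock, 51 in SspA+HDM and 14 in both were higher than in other epithelial cells, against 15, 26 and 9 with it. Per cell, 44 genes were higher and 26 lower in SspA+HDM, and 23, 52 and 19 higher than in other epithelial cells. Lower genes numbered 78 with a minimum of 50 transcripts, 33 with 300 and 30 over the nucleus. Fewer genes are compared with 300 transcripts or over the nucleus, and looser settings can admit more than the 117 of the main run. These counts of genes are therefore not shares of the same gene set. Leaving out each strip in turn gave 21 to 26 higher and 45 to 53 lower genes, share ratios of 1.03 to 1.06, depth differences of 0.707 to 1.82 µm and 2.56 to 2.93 times the members per mm. Of the named genes at least 2-fold apart, 2 changed side, Actn3 from 2.22 to 0.318 times the mock level without strip 1 of SspA+HDM, and Bgn from 0.484 to 1.01 times per cell. Of those within 2-fold, Sbsn, Il1r2, Ube2c, Des, Ttn and Car3, below mock by CPM, were 1.10 to 2.04 times the mock level per cell, and some changed side under other settings too. The other single-gene values moved beyond the main counting interval in 381 cases and stayed within it in 616. The cause of these changes was not tested.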
